A study of Mus musculus with 83 samples.

Results

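The 42 genes described here encode the machinery that drives a cell from G1 through DNA replication into mitosis, measured in single mouse ovarian follicles before and after an ovulatory dose of hCG. They were chosen by name, as the listed cyclin, DNA replication and mitosis genes, and all 42 were present among the 21572 gene rows of the count table. By role, 10 act in G1 and at entry into S phase, 9 load or build the replication machinery, 4 supply nucleotides for DNA synthesis and 19 act in mitosis. Of the 42 genes, 37 passed the filter on low counts and could be tested, as did 11889 of all 21572 genes.

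Follicles came from wild-type CD-1 mice, an outbred strain, and each of the 83 libraries was made from 1 follicle. They were encapsulated either fresh or after vitrification (cryopreservation by cooling into a glass without ice) in 0.5% alginate, and both kinds then grew for 8 days with 10 mIU/ml recombinant FSH. Follicles of 300 to 350 µm were freed from the alginate and transferred to a maturation medium with 10 mIU/ml recombinant FSH, 10% serum, 10 ng/ml EGF and 1.5 IU/ml hCG, a ligand of the LH receptor. The study asked how fresh and vitrified follicles change their transcripts through ovulation outside the body. The 8 groups were fresh follicles at 0 h (n = 18), 1 h (n = 6), 4 h (n = 7) and 8 h (n = 4) after hCG, and vitrified follicles at 0 h (n = 15), 1 h (n = 14), 4 h (n = 7) and 8 h (n = 12).

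All groups shared the strain and the growth medium, and the groups of 1, 4 and 8 h shared the maturation medium. None of the 8 groups was collected at a later hour without hCG. The titles hold 3 prefixes before the well names, each taken here as a plate, although only that of the 0 h libraries says plate. One carried the 0 h libraries and nothing else, so the step from 0 h to 1 h and a difference between plates cannot be told apart. That step also holds the release from alginate and the serum and EGF of the maturation medium, which cannot be separated from hCG. Another, the shared plate, carried every fresh library of the later hours next to 5 vitrified ones of 1 h, 7 of 4 h and 3 of 8 h. The remaining 18 vitrified libraries, 9 of 1 h and 9 of 8 h, had a plate to themselves, called the vitrified-only plate, and are given separately throughout. Groups also occupied plate rows of their own. Under the prefix of the shared plate, sample numbers in the titles repeat between rows, as in fresh 4 h and fresh 8 h. The same holds for fresh 1 h and vitrified 1 h. Comparisons within that plate may therefore still cross batches, which was not tested. No label ties a follicle to an animal or a culture run. The p-values therefore reflect only how follicles of a group vary, and some of that may be technical.

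As background, D-type cyclins with Cdk4 start the G1 program, E cyclins with Cdk2 carry cells into S phase, and E2F factors switch on the genes for replication licensing and nucleotide synthesis. Cyclins A and B with Cdk1 then drive G2 and mitosis, and their genes are read from promoters that carry CCAAT boxes and a CHR element, repressed in resting cells by the DREAM complex and activated in cycling cells by B-Myb and FoxM1. In growing follicles FSH sustains granulosa cell division through cyclin D2, and the LH surge ends that division as granulosa cells turn into luteal cells.

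Letters of these promoter classes were searched for in the sequences of the listed genes. Windows from 250 bases before to 50 bases after the annotated start were found for 33 of the 42 genes in RefSeq, build GRCm38.p6, and the genes without one are Aurkb, Ccna2, Ccnd1, Ccnd2, Ccne2, Kif20a, Mcm4, Myc and Tpx2. The motifs searched on both strands were CCAAT, the CHR as TTTGAA or TTCGAA, and the E2F site as TTTCCCGC, TTTCGCGC, TTTGCCGC or TTTGGCGC; matches of different motifs, or of E2F sites on opposite strands, can overlap. Among the 15 mitosis genes with a window, 13 (86.7%) held CCAAT, 11 (73.3%) a CHR and 1 (6.67%) an E2F site. Among the 8 replication genes, 6 (75%) held CCAAT, 2 (25%) a CHR and 6 (75%) an E2F site. Over all 32851 windows of the same length the shares were 37.4%, 19.2% and 2.26%. These are shares of windows, while a listed gene was counted if any of its windows matched. Ccnd3 and Mcm7 had more than 1 window. The 4 nucleotide supply genes held 2 CCAAT windows, with no CHR and no E2F match, and the 6 genes of G1 and S entry held 3, 0 and 1. The 180 bases before the start are shown for 3 mitosis genes and 2 replication genes, 5′ to 3′ on the strand of the gene, because the difference between the classes is visible in them: capitals mark a match of any of these motifs. Ccnb2 (chr9:70421555-70421734, minus strand), Top2a (chr11:99024190-99024369, minus) and Cdk1 (chr10:69352913-69353092, minus) come first, followed by Mcm5 (chr8:75109329-75109508, plus) and Mcm6 (chr1:128359706-128359885, minus).
Ccnb2: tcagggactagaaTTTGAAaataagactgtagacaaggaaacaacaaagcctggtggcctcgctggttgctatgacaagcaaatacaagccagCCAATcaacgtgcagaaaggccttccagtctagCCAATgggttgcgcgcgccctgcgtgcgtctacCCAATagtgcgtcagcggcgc
Top2a: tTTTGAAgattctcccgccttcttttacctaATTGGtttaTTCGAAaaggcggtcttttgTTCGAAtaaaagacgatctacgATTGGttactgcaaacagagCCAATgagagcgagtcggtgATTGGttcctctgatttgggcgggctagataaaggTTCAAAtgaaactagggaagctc
Cdk1: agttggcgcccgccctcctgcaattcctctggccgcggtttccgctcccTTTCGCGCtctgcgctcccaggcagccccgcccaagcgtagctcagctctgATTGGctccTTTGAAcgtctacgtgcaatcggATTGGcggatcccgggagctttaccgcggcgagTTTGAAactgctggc
Mcm5: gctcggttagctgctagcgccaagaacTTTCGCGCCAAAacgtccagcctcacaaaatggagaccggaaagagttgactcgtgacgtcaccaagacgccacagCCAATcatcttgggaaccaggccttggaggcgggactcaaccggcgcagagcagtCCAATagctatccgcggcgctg
Mcm6: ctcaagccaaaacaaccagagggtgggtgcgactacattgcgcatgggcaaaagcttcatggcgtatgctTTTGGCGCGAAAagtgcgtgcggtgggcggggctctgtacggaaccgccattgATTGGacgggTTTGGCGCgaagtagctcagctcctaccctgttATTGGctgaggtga

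In these stretches Ccnb2, Top2a and Cdk1 carried repeated CCAAT boxes with CHR letters, and Mcm5 and Mcm6 carried E2F letters with CCAAT boxes and no CHR. Cdk1 was the 1 mitosis gene whose window also held an E2F match. Genes not shown departed from these classes: Mcm2 held a CHR and no E2F match, Mcm7 a CHR beside E2F matches, and Pcna no E2F match. Ccnb1 and Cenpe held no CHR, and Birc5 and Mad2l1 none of the motifs. A match is a description of letters, not a bound site.

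Library totals ran from 682200 to 6504590 estimated counts. Levels are given as CPM, counts relative to the TMM-scaled library total, which serves to compare 1 gene across libraries. TPM values are those of the authors and are given for some genes at 0 h and 8 h and for the D cyclin ratio. Between the listed genes the ratio of CPM to TPM followed the genomic span, introns included, so TPM is not corrected for transcript length. Genes with long introns are understated in TPM, and TPM values of different genes do not rank their transcripts. On the log2(TPM + 1) scale the change of genes with low TPM is understated. Groups of up to 5 libraries are given library by library and larger ones by their lowest, highest and median value. Where medians alone are listed, they run in the order 0, 1, 4 and 8 h, without the vitrified-only plate, and then 1 and 8 h on the vitrified-only plate. Differences are log2 fold changes with their standard error (SE) from edgeR's quasi-likelihood test, and a gene is said to have risen or fallen where its p, adjusted by Benjamini-Hochberg over all 11889 genes, was under 0.05. Because whole follicles were measured, fewer cells of a type and less RNA per cell cannot be told apart. Granulosa markers, the defining transcripts of the follicle's main cell type, had summed levels of 58024 to 99123 CPM in fresh 0 h libraries and 14321 to 19808 CPM in fresh 8 h libraries. From 1 h to 8 h in fresh follicles, 11 of 12 tested granulosa markers and 8 of 13 theca and stroma markers fell, against 23.5% of all genes, and the summed theca and stroma markers moved from between 710.4 and 3026 CPM to between 128 and 457 CPM. Summed oocyte markers lay between 14.4 and 306 CPM over all libraries, with Ddx4 at 0 in every library of 5 of the 10 sets. Endothelial markers also fell, 2 of 4 tested over the same hours, and of the 8 immune markers 1 passed the filter and none of the 6 erythroid markers did. The part of these shifts in the results on cell cycle genes was not tested.

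Fresh 0 h replicates 15 and 16 stood apart: their summed mitosis genes were at 59.2 and 37.1 CPM where the other 16 libraries had 123 to 401 CPM. Results on the 0 h step are therefore also given without them.

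Before hCG, cyclin-dependent kinase 4 had the highest median TPM of the listed genes, 310.1 TPM in fresh follicles. Ccnd2 followed at 29.7 TPM and Ccna2 at 27.3, ahead of Pcna at 18.5, Cdkn1b at 14.6 and Cdc20 at 13.5. Ccnd3 was at 1.38 TPM. Because TPM divides by genomic span, this order does not rank transcripts. In CPM, uncorrected for length, the medians were 365 for Cdk4, 203 for Ccnd2, 55.8 for Ccna2, 38 for Top2a and 34.5 for Ccnd3. At 8 h in fresh follicles Cdk4 was at 455 TPM, Myc at 55.4, Pcna at 39.8, Ccnd3 at 13.1 and Ccnd2 at 7.96. The 8 h medians of Ccnd3 and Ccnd2 in CPM were 220 and 38.2.

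Ccnd1, the E cyclins and E2f1 had few counts, as did Cdc6. E2f1 is the only E2F factor among the listed genes, so other E2F factors are not covered here. Ccnd1, the D cyclin of many other tissues, had 63 counts over all 83 libraries and none in 47 of them. Ccne1 had 287 counts (none in 21 libraries), Ccne2 201 (none in 29), E2f1 195 (none in 30) and Cdc6, the licensing ATPase, 113 (none in 45). Cdc6 had no count in any of the 6 fresh 1 h libraries, which allows up to 0.226 CPM in that group by counting error alone.

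The medians of Ccnd1 over the 10 sets of libraries lay between 0 and 0.58 CPM, those of Ccne1 between 0 and 1.96, and those of Ccne2 between 0 and 1.28. For E2f1 they lay between 0 and 0.92 CPM and for Cdc6 between 0 and 0.383 CPM. These 5 genes are not among the 37 tested.

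From 0 h to 1 h Myc and Pcna rose in both kinds of follicle, and Cdkn1b, Mcm3, Mcm7 and Plk1 fell in both, the fresh call of Plk1 being lost with only the libraries compared in the model. In fresh follicles 2 of the 37 tested rose and 7 fell, against 19% and 23.1% of all genes, so the listed genes held fewer rises than the background and about its share of falls. In vitrified follicles 4 rose and 5 fell, against 21.5% and 22%, with a split of 3 and 6 under limma. With total counts in place of TMM scaling the splits were 2 and 25 in fresh and 2 and 14 in vitrified follicles, and the median of all genes then moved from -0.11 to -0.60 in fresh and from -0.05 to -0.65 in vitrified follicles. Without fresh 0 h replicates 15 and 16, 10 genes were called in fresh follicles, 9 of them as before.

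From 1 h to 4 h most of the genes that passed the test fell. In fresh follicles 1 gene rose and 9 fell, against 21.9% and 24.5% of all genes, so the share of falls (24.3%) was near the background. In vitrified follicles 1 rose and 14 fell (37.8%), against 20.6% and 25.9%. Of the 9 and 14 genes that fell, 8 were common to both kinds of follicle (88.9% and 57.1%): Pcna, Mcm2, Mcm3, Rrm1, Rrm2, Ccna2, Ccnb2 and Top2a. Over all tested genes the shares common to both were 81.4% and 77.1%.

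From 4 h to 8 h genes moved in both directions. In fresh follicles 3 genes rose and 6 fell, against 20.8% and 15.7% of all genes, and in vitrified follicles 4 rose and 4 fell, against 22% and 15%. Ccnd3, Mcm2 and Tyms rose in both kinds of follicle, which is all 3 of the fresh list and 75% of the vitrified one. Pcna, Ccna2 and Top2a fell in both, 50% and 75% of the lists. Over all tested genes the common shares were 72.8% and 68.8% of the rises and 63.6% and 66.3% of the falls. The falls at this step depended on scaling: with total counts the splits were 11 and 1 in fresh and 9 and 0 in vitrified follicles, and with RLE size factors 4 and 5 in fresh and 5 and 3 in vitrified. With limma on log2(TPM + 1) the splits were 11 and 0 in fresh and 9 and 0 in vitrified. TPM values, like total counts, carry no TMM scaling. The limma setting also changes the model and understates genes with low TPM. The median of all genes was 0.12 (fresh) and 0.17 (vitrified) with TMM and 0.75 and 0.73 with total counts. Among fresh libraries the count of 9 also became 5 without 8 h replicate 1, and among vitrified libraries the count of 8 became 3 without 8 h replicate 2.

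Over the whole span from 1 h to 8 h in fresh follicles 3 genes rose and 15 fell (40.5% of the 37), against 26.2% and 23.5% of all genes, with splits of 6 and 10 under total counts and 6 and 7 with limma. Of these falls, that of Rrm1 was lost in 11 of 12 alternatives, with adjusted p up to 0.92. Mcm2 lost its call in 7 of 12 (adjusted p up to 0.901) and Rrm2 in 4 of 12 (adjusted p up to 0.483). On the vitrified-only plate, whose libraries are none of those in the fresh span, 6 rose and 12 fell (32.4%), against 32% and 27.4%, with splits of 12 and 8 under total counts and 19 and 3 with limma.

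**Figure D1:**
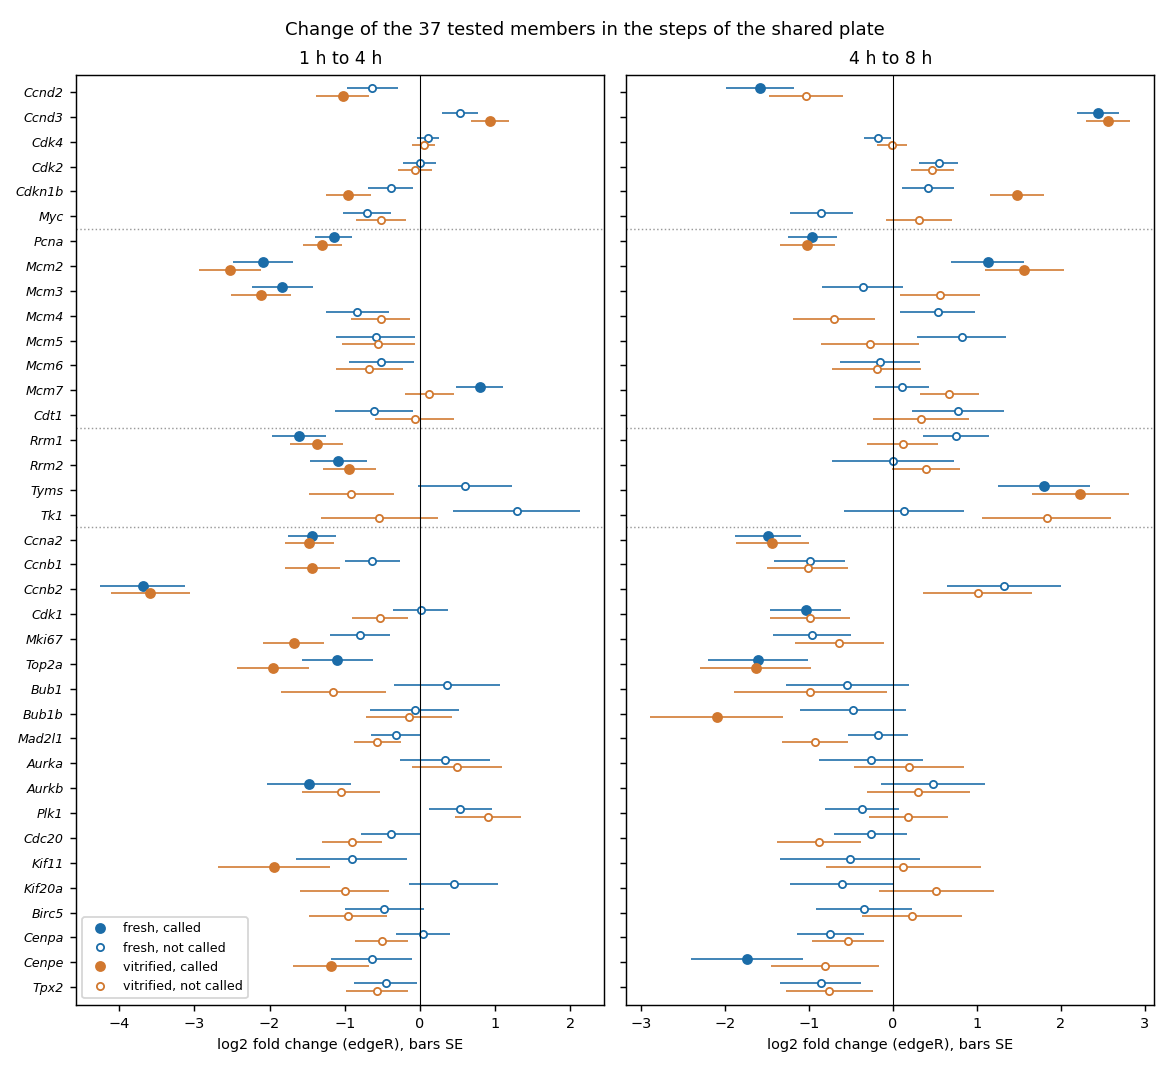
Log2 fold change with its SE (x axis) of the 37 tested genes, grouped by role, from 1 h to 4 h and from 4 h to 8 h in fresh and vitrified follicles of the shared plate; filled symbols passed an adjusted p under 0.05. Replication and mitosis genes lie mostly left of 0 in the first step, and in the second Ccnd3, Mcm2 and Tyms lie right of 0 in both kinds of follicle.

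The D-type cyclins moved in opposite directions. On GRCm38, Ccnd2 lies at chr6:127125162-127152193 on the minus strand and Ccnd3 at chr17:47505051-47599691 on the plus strand. In fresh follicles Ccnd2 lay at 8.85 to 358 (median 203) CPM at 0 h and 119.6 to 226 (median 167) CPM at 1 h. By 4 h it was at 88.8 to 170.2 (median 95.1) CPM, and the 4 libraries of 8 h had 27.8, 41.8, 40.1 and 36.3 CPM. Ccnd2 is the FSH-driven D cyclin of granulosa cells, and the low end at 0 h came from replicates 15 and 16 (8.85 and 19.6 CPM, where the other 16 had 96.1 to 358). The 4 fresh 8 h libraries lay below every fresh 1 h and 4 h library. Vitrified follicles had 134 to 447 (median 222) CPM at 0 h, and 192, 369, 440.4, 159 and 199.8 CPM in the 5 shared-plate libraries of 1 h. Their 4 h libraries had 99.2 to 162 (median 133) CPM and the 3 of 8 h 52.7, 39.1 and 103 CPM. The vitrified-only plate had 116 to 324 (median 206) CPM at 1 h and 11 to 24 (median 13.9) CPM at 8 h. All 9 libraries of 8 h on that plate lay below all 9 of 1 h. Ccnd2 fell by 2.22 ± 0.43 on the log2 scale from 1 h to 8 h in fresh follicles (adjusted p = 1.10e-05) and by 3.74 ± 0.32 on the vitrified-only plate (adjusted p = 3.09e-17). The step from 4 h to 8 h in fresh follicles was -1.58 ± 0.41 (SE, adjusted p = 0.00133), a call that limma on log2(TPM + 1) did not make, and the step from 1 h to 4 h in vitrified follicles was -1.02 ± 0.35 (SE, adjusted p = 0.0125), which was lost without vitrified 1 h replicate 3 and with limma.

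Ccnd3, the D cyclin linked to differentiation in several tissues, did the reverse. Ccnd3 levels in fresh follicles were 18.3 to 64 (median 34.5) CPM at 0 h and 16.5 to 48.2 (median 23.1) CPM at 1 h. At 4 h the values were 14.3 to 64.8 (median 39.9) CPM, with 248, 194, 237 and 203 CPM in the 4 libraries of 8 h. No fresh 8 h library overlapped any earlier one of 1 h or 4 h. After vitrification it was at 27.6 to 70.7 (median 41.8) CPM at 0 h and at 34.1, 16.3, 22.2, 21 and 26.7 CPM in the 5 shared-plate libraries of 1 h. At 4 h these follicles had 30.9 to 59.2 (median 46.1) CPM, and the 3 libraries of 8 h 295, 279 and 244 CPM. Libraries of the vitrified-only plate had 12.4 to 34.4 (median 21.5) CPM at 1 h and 151 to 240.3 (median 197) CPM at 8 h. Every 8 h library again lay above every 1 h library. Its log2 fold change from 4 h to 8 h was 2.44 ± 0.25 (SE, adjusted p = 3.21e-13) in fresh and 2.56 ± 0.27 (SE, adjusted p = 4.60e-13) in vitrified follicles, and from 1 h to 8 h on the vitrified-only plate 3.13 ± 0.21 (SE, adjusted p = 3.83e-23). These calls were kept in every alternative tried for them. At 1 h in vitrified follicles Ccnd3 had been lower than at 0 h (-0.88 ± 0.23, adjusted p = 0.000911), and from 1 h to 4 h it was 0.93 ± 0.25 (SE, adjusted p = 0.00149).

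The ratio of Ccnd3 to Ccnd2 TPM is read only for its change between groups. TPM divides each gene by its genomic span, and Ccnd3 has the longer one, so the ratio itself is understated. It had a median of 0.0537 in fresh follicles at 0 h, 0.0465 at 1 h (0.0216 to 0.0763) and 0.100 at 4 h (0.0408 to 0.209). In the 4 fresh libraries of 8 h it was 2.55, 1.32, 1.69 and 1.6. The highest earlier value in fresh follicles, 0.928, came from a 0 h library. In vitrified follicles it was 0.0981 at 4 h (0.0550 to 0.146) and 1.6, 2.04 and 0.675 at 8 h. On the vitrified-only plate it moved from a median of 0.0277 at 1 h (0.0165 to 0.0612) to 3.95 at 8 h (2.23 to 6.22). Cdk4 encodes the kinase that both cyclins bind: its medians were 365, 338, 391 and 354 CPM in fresh and 366, 354, 366 and 354 CPM in vitrified follicles (vitrified-only plate 327 and 349.8). None of its comparisons passed the test, with log2 fold changes between -0.18 and 0.17. Reads of Cdk4 and Tspan31, which share exon bases on opposite strands, cannot be told apart here.

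**Figure D2:**
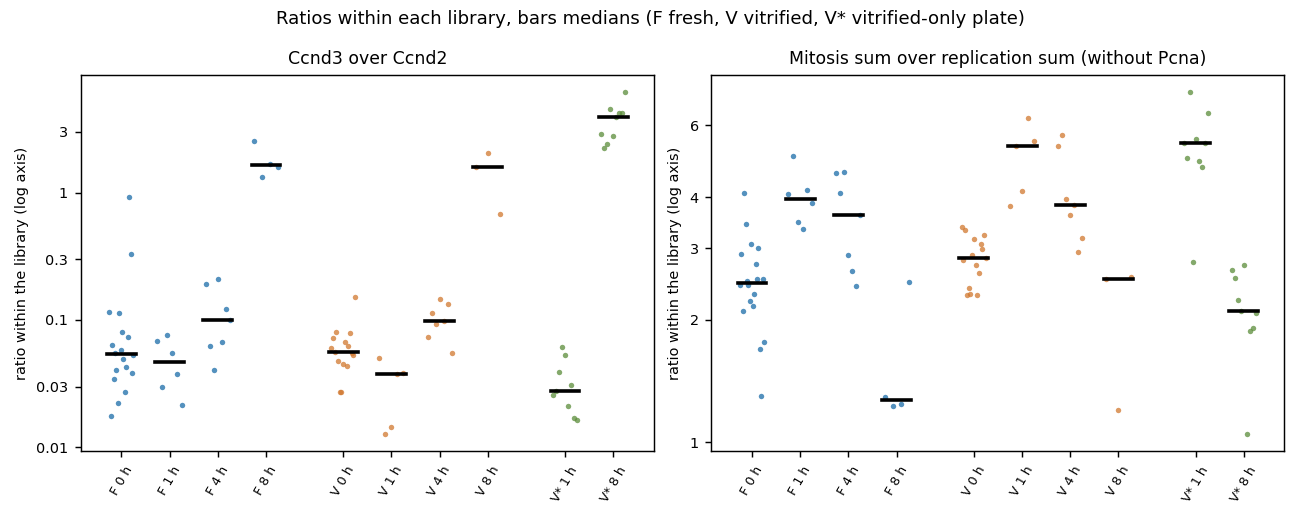
Ratio of Ccnd3 to Ccnd2 TPM and ratio of summed mitosis CPM to summed replication CPM without Pcna (log axes) in each library, by group; bars are medians. The D cyclin ratio of the 8 h libraries is at least 0.675 and that of the 1 h and 4 h libraries at most 0.209. It is read only for its change between groups, because TPM divides by genomic span. The median ratio of mitosis to replication without Pcna is lowest at 8 h in fresh follicles.

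Myc, the growth transcription factor that acts upstream of cyclin expression, marked the first hour. Fresh follicles had Myc at 3.56 to 44.8 (median 12.1) CPM at 0 h and 80.6 to 173 (median 133) CPM at 1 h. The 4 h libraries had 64.2 to 110.4 (median 77.3) CPM and the 4 of 8 h 50.9, 45.6, 62.6 and 27.3 CPM. Every fresh library of 1 h and 4 h lay above every one of 0 h. In vitrified follicles the range was 1.39 to 14.2 (median 7.36) CPM at 0 h, with 84.5, 56.7, 130.3, 65.1 and 60.6 CPM in the 5 shared-plate libraries of 1 h. Later values were 32.1 to 73.2 (median 57.8) CPM at 4 h and 69.3, 48.5 and 88.2 CPM in the 3 libraries of 8 h. All 1 h libraries on the shared plate lay above all 0 h libraries. Its log2 fold change from 0 h to 1 h was 3.20 ± 0.25 (SE, adjusted p = 3.36e-19) in fresh and 3.38 ± 0.29 (SE, adjusted p = 1.91e-17) in vitrified follicles. For Myc the vitrified-only plate gave 38.7 to 132 (median 97.5) CPM at 1 h and 13.8 to 56.2 (median 26.9) CPM at 8 h. From 1 h to 8 h Myc fell by 1.56 ± 0.39 in fresh follicles (adjusted p = 0.000558) and by 1.59 ± 0.28 on the vitrified-only plate (adjusted p = 1.00e-06), both lost with limma on log2(TPM + 1).

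Cdkn1b encodes p27, the Cdk2 inhibitor that holds cells in G1. In fresh follicles Cdkn1b lay at 9.39 to 24.9 (median 18.4) CPM at 0 h and 2.73 to 8.72 (median 4.76) CPM at 1 h. By 4 h it was at 1.51 to 5.35 (median 4.9) CPM, and the 4 libraries of 8 h had 3.91, 3.36, 6.36 and 8.84 CPM. The fresh 1 h libraries all lay below those of 0 h. Vitrified follicles had 12 to 36.1 (median 17.1) CPM at 0 h, and 5.23, 4.89, 9.75, 2.02 and 9.99 CPM in the 5 shared-plate libraries of 1 h. Their 4 h libraries had 1.58 to 4.85 (median 2.9) CPM and the 3 of 8 h 10.8, 11.3 and 6.5 CPM. All 1 h libraries of the shared plate lay below all 0 h libraries of the same kind of follicle, with log2 fold changes of -1.80 ± 0.24 (SE, adjusted p = 1.11e-09) and -1.57 ± 0.25 (SE, adjusted p = 1.10e-07). In vitrified follicles Cdkn1b then fell further to 4 h (-0.95 ± 0.30, adjusted p = 0.00613, lost in 3 of 12 alternatives, with adjusted p up to 0.191) and rose to 8 h (1.48 ± 0.32, adjusted p = 0.000131). In fresh follicles the 4 h to 8 h value was 0.42 ± 0.31 (SE, adjusted p = 0.304), and the difference between the steps was 1.06 ± 0.46 (SE, adjusted p = 0.449), which did not pass. Cdkn1b on the vitrified-only plate was at 5.18 to 11.7 (median 9.9) CPM at 1 h and 10.1 to 13.9 (median 12.2) CPM at 8 h. Its change over that span did not pass the test.

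Cdk2, the S phase kinase, had medians of 19.1, 17, 15.4 and 21.7 CPM in fresh and 16.2, 13.9, 12.6 and 20.3 CPM in vitrified follicles (vitrified-only plate 11.7 and 22.9). It rose on the vitrified-only plate from 1 h to 8 h (0.82 ± 0.19, adjusted p = 9.28e-05); the other steps did not pass.

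**Figure D3:**
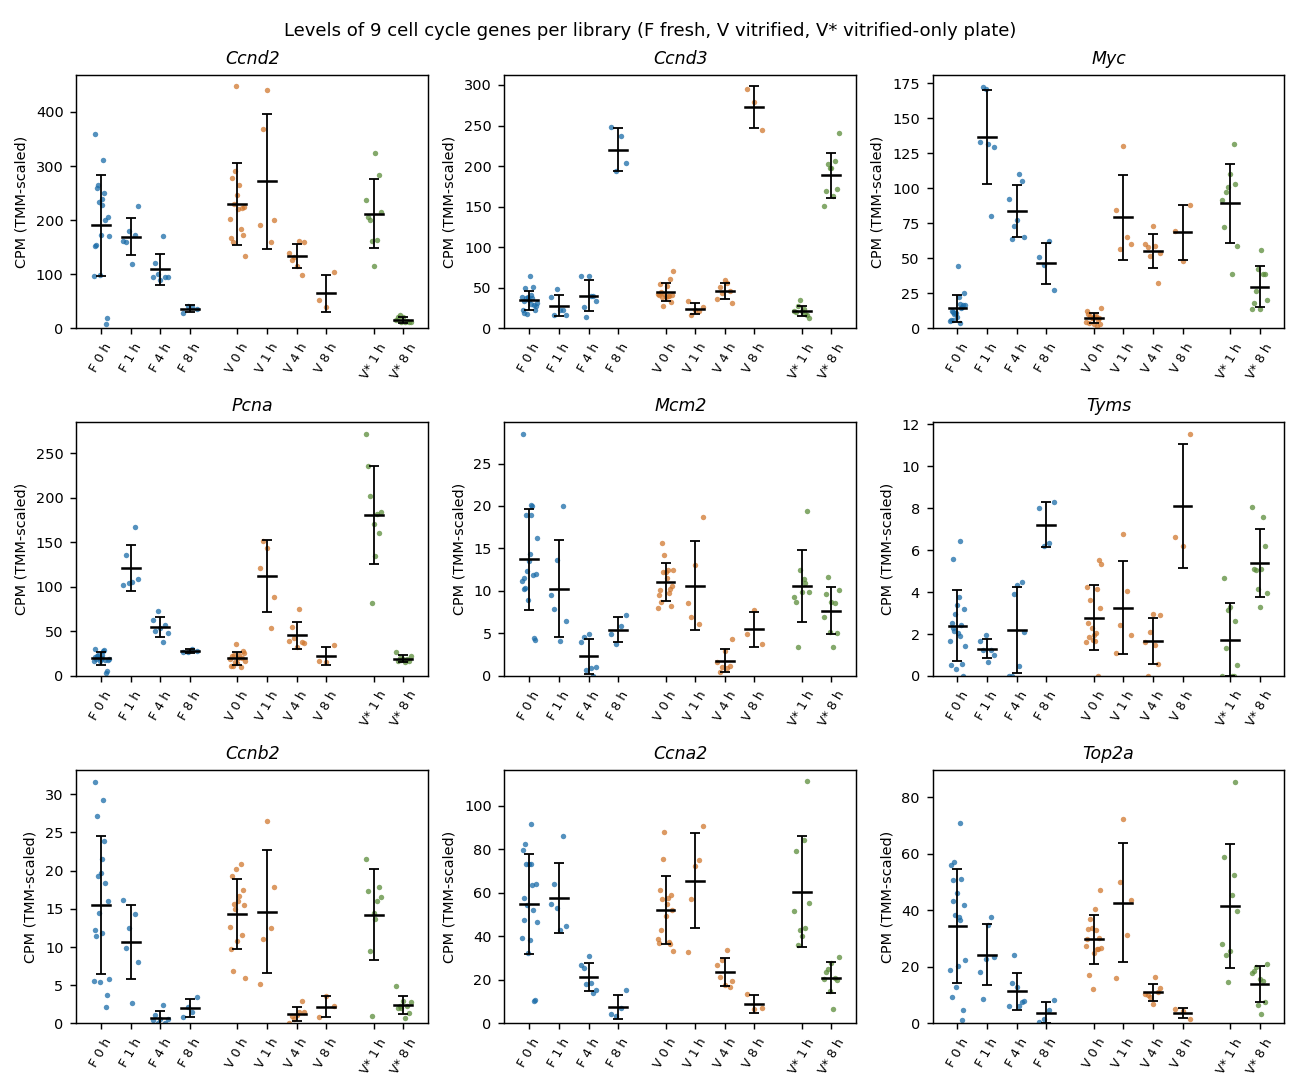
CPM (y axis, own scale per panel) of Ccnd2, Ccnd3, Myc, Pcna, Mcm2, Tyms, Ccnb2, Ccna2 and Top2a in each library by group; points are libraries and bars the mean ± SD. Myc and Pcna peak at 1 h, Ccnb2 and Mcm2 are low at 4 h, and Ccnd3 is highest in the 8 h groups.

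Pcna, the sliding clamp of the replication fork that also serves DNA repair, rose at the step where Mcm3 and Mcm7 fell. Pcna levels in fresh follicles were 3.32 to 30 (median 19.6) CPM at 0 h and 103 to 167 (median 107) CPM at 1 h. At 4 h the values were 38.4 to 73.5 (median 53.9) CPM, with 27, 26.6, 30.8 and 28.4 CPM in the 4 libraries of 8 h. The fresh libraries of 1 h, 4 h and 8 h did not overlap, each set lying below the one before. After vitrification it was at 9.71 to 36 (median 19.9) CPM at 0 h and at 122, 152, 144, 54.1 and 89.1 CPM in the 5 shared-plate libraries of 1 h. At 4 h these follicles had 32.6 to 75.2 (median 38.9) CPM, and the 3 libraries of 8 h 17, 15.8 and 34.3 CPM. The vitrified-only plate had 82.4 to 272 (median 182) CPM at 1 h and 15.6 to 27 (median 19.3) CPM at 8 h. On the shared plate its 1 h libraries lay above all 0 h libraries. Pcna rose from 0 h to 1 h by 2.61 ± 0.19 (SE, adjusted p = 2.23e-21) in fresh and 2.49 ± 0.21 (SE, adjusted p = 5.84e-18) in vitrified follicles, then fell from 1 h to 4 h by 1.14 ± 0.25 (adjusted p = 6.49e-05) and 1.30 ± 0.26 (adjusted p = 1.49e-05). The 4 h to 8 h step was -0.96 ± 0.29 (SE, adjusted p = 0.00577) in fresh and -1.02 ± 0.32 (SE, adjusted p = 0.00899) in vitrified follicles. These 2 calls were lost with total counts and with limma, and the second also without vitrified 8 h replicate 1 or 2. From 1 h to 8 h on the vitrified-only plate Pcna fell by 3.21 ± 0.23 (adjusted p = 1.37e-22).

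Relative to the summed CPM of the other replication genes, Pcna had medians of 0.220, 2.29, 1.64 and 0.693 in fresh follicles at 0, 1, 4 and 8 h, and 0.218, 1.69, 1.31 and 0.477 in vitrified follicles of the shared plate. A processed pseudogene, Pcna-ps2, is 99.2% identical over the aligned stretch, so some reads may be split between them.

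The MCM genes encode the hexameric helicase that licenses and opens replication origins, and Mcm2, Mcm3, Mcm5 and Mcm7 each fell at an early step. Fresh follicles had Mcm2 at 4.25 to 28.5 (median 12.2) CPM at 0 h and 4.1 to 20.1 (median 8.7) CPM at 1 h. The 4 h libraries had 0 to 4.9 (median 1.06) CPM and the 4 of 8 h 4.98, 3.75, 5.87 and 7.18 CPM. The fresh 1 h and 4 h ranges overlapped. In vitrified follicles the range was 8.05 to 15.6 (median 10.6) CPM at 0 h, with 8.53, 6.93, 13, 6.06 and 18.7 CPM in the 5 shared-plate libraries of 1 h. Later values were 0.486 to 4.35 (median 1.17) CPM at 4 h and 4.98, 7.75 and 3.73 CPM in the 3 libraries of 8 h. The vitrified 4 h libraries lay below all 5 of 1 h. Mcm2 fell from 1 h to 4 h by 2.08 ± 0.40 (adjusted p = 7.29e-06) in fresh and by 2.52 ± 0.41 (adjusted p = 2.86e-07) in vitrified follicles. It then rose from 4 h to 8 h by 1.13 ± 0.43 (SE, adjusted p = 0.0335) and 1.56 ± 0.47 (SE, adjusted p = 0.00582). The fresh call was lost in 4 of 11 alternatives, with adjusted p up to 0.134, among them the omission of 8 h replicate 1, 3 or 4, and the vitrified call was lost without 8 h replicate 2. Libraries of the vitrified-only plate had 3.37 to 19.4 (median 9.88) CPM at 1 h and 3.39 to 11.6 (median 8.58) CPM at 8 h.

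Mcm3 fell at both early steps, from 0 h to 1 h (-1.43 ± 0.30, adjusted p = 4.50e-05 in fresh, -1.01 ± 0.31, adjusted p = 0.00496 in vitrified) and from 1 h to 4 h (-1.83 ± 0.40, adjusted p = 8.67e-05 and -2.11 ± 0.40, adjusted p = 6.96e-06). Its medians were 21.5, 8.65, 2.18 and 1.83 CPM in fresh and 20.2, 8.89, 3.17 and 3.57 CPM in vitrified follicles (vitrified-only plate 7.57 and 3.45), and its value from 1 h to 8 h in fresh follicles was -2.19 ± 0.44 (SE, adjusted p = 2.19e-05). Mcm7 fell from 0 h to 1 h (-1.29 ± 0.27, adjusted p = 5.27e-05 and -1.02 ± 0.29, adjusted p = 0.00236) and rose in fresh follicles from 1 h to 4 h (0.79 ± 0.31, adjusted p = 0.0294), a call lost without fresh 1 h replicate 5 and with limma. Mcm7 also rose over the span from 1 h to 8 h in fresh follicles (0.90 ± 0.34, adjusted p = 0.022, lost without 8 h replicate 4) and on the vitrified-only plate (1.16 ± 0.27, adjusted p = 0.000118). Mcm7 shares exon bases with Ap4m1 on the opposite strand and 97.7% identity with the pseudogene Gm5487, so its counts are uncertain. Mcm5 had medians of 6.22, 2.4, 1.95 and 3.49 CPM in fresh and 5.88, 4.48, 1.93 and 2.07 CPM in vitrified follicles (vitrified-only plate 2.33 and 4.84) and fell from 0 h to 1 h in fresh follicles (-1.09 ± 0.40, adjusted p = 0.0232). Mcm6 had medians of 14.3, 9.5, 7.04 and 5.9 CPM in fresh and 12.2, 7.98, 6.31 and 4.98 CPM in vitrified follicles (vitrified-only plate 10.4 and 9.33), and none of its comparisons passed the test. Mcm4 likewise passed in none, with log2 fold changes between -1.23 and 0.78. Cdt1, the licensing factor that loads the MCM helicase, had medians of 3.76, 2.88, 2.11 and 3.72 CPM in fresh and 2.98, 3.23, 2.42 and 4.33 CPM in vitrified follicles (vitrified-only plate 1.04 and 5.3). It rose on the vitrified-only plate from 1 h to 8 h (1.88 ± 0.46, adjusted p = 0.000308), and 1 library of 1 h there was at 5.77 CPM.

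Among the nucleotide supply genes, Rrm1 and Rrm2, the subunits of ribonucleotide reductase, fell at 4 h, and thymidylate synthase (Tyms) rose at 8 h. In fresh follicles Tyms lay at 0 to 6.46 (median 2.21) CPM at 0 h and 0.683 to 1.94 (median 1.23) CPM at 1 h. By 4 h it was at 0 to 4.48 (median 2.11) CPM, and the 4 libraries of 8 h had 8.01, 6.2, 6.36 and 8.29 CPM. The fresh 8 h libraries lay above all those of 1 h and 4 h. Vitrified follicles had 0 to 5.52 (median 2.3) CPM at 0 h, and 1.1, 2.45, 6.77, 4.04 and 1.95 CPM in the 5 shared-plate libraries of 1 h. Their 4 h libraries had 0 to 2.96 (median 1.62) CPM and the 3 of 8 h 6.63, 6.17 and 11.5 CPM. For Tyms the vitrified-only plate gave 0 to 4.67 (median 1.35) CPM at 1 h and 3.29 to 8.05 (median 5.08) CPM at 8 h. No 8 h library of the shared plate overlapped the 4 h libraries of its kind. Tyms rose from 4 h to 8 h by 1.80 ± 0.55 (SE, adjusted p = 0.00615) in fresh and 2.23 ± 0.58 (SE, adjusted p = 0.00123) in vitrified follicles and by 1.62 ± 0.47 (SE, adjusted p = 0.00201) from 1 h to 8 h on the vitrified-only plate; the 2 steps to 8 h kept their call in every alternative. Tyms shares long stretches with Tyms-ps and with repeat-bearing transcripts, so its reads may include others.

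Rrm2 had medians of 8.07, 6.17, 2.66 and 3.06 CPM in fresh and 8.03, 6.87, 4.32 and 5.81 CPM in vitrified follicles (vitrified-only plate 5.82 and 5.45). It fell from 1 h to 4 h by 1.09 ± 0.38 (adjusted p = 0.0134) in fresh follicles, lost without fresh 1 h replicate 5, and by 0.94 ± 0.35 (adjusted p = 0.0222) in vitrified follicles, lost in 3 of 12 alternatives, with adjusted p up to 0.24, among them the omission of vitrified 1 h replicate 5. Rrm1 fell by 1.60 ± 0.36 (adjusted p = 0.000111) and 1.37 ± 0.35 (adjusted p = 0.000729) over the same step, the latter lost with limma. Rrm1 had medians of 19.1, 10.9, 3.89 and 5.81 CPM in fresh and 17.6, 13.5, 4.32 and 6.22 CPM in vitrified follicles (vitrified-only plate 10.2 and 15.6). Thymidine kinase 1 (Tk1), the salvage enzyme, had medians of 2.13, 0.205, 0.65 and 0.613 CPM in fresh and 1.95, 0.652, 0.485 and 1.79 CPM in vitrified follicles (vitrified-only plate 0.659 and 0.663); it fell from 0 h to 1 h in fresh follicles (-2.56 ± 0.69, adjusted p = 0.00148).

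Cyclin B2 had the largest fall of the mitosis genes from 1 h to 4 h. Ccnb2 levels in fresh follicles were 2.21 to 31.6 (median 15.3) CPM at 0 h and 2.73 to 16.2 (median 11.2) CPM at 1 h. At 4 h the values were 0 to 2.43 (median 0.529) CPM, with 0.89, 2.2, 1.47 and 3.5 CPM in the 4 libraries of 8 h. All fresh 4 h libraries lay below all those of 1 h. After vitrification it was at 5.94 to 20.8 (median 15.5) CPM at 0 h and at 5.23, 11, 26.5, 12.5 and 17.8 CPM in the 5 shared-plate libraries of 1 h. At 4 h these follicles had 0 to 2.92 (median 1.11) CPM, and the 3 libraries of 8 h 0.829, 3.55 and 2.27 CPM. The vitrified-only plate had 1.04 to 21.5 (median 16.1) CPM at 1 h and 0.678 to 4.89 (median 2.27) CPM at 8 h. No 4 h library of either kind reached the lowest 1 h library of its kind. Ccnb2 fell from 1 h to 4 h by 3.69 ± 0.57 (adjusted p = 5.31e-08) in fresh and 3.58 ± 0.52 (adjusted p = 1.44e-08) in vitrified follicles, kept in every alternative. The 4 h to 8 h values were 1.33 ± 0.68 (SE, adjusted p = 0.117) and 1.01 ± 0.65 (SE, adjusted p = 0.226), neither of them called.

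Cyclin A2, which acts in S phase and in mitosis, fell in steps. Fresh follicles had Ccna2 at 10.5 to 91.5 (median 55.8) CPM at 0 h and 43 to 86.3 (median 54) CPM at 1 h. The 4 h libraries had 14.1 to 31 (median 18.5) CPM and the 4 of 8 h 4.27, 3.62, 7.34 and 15.3 CPM. All fresh 4 h libraries again lay below all those of 1 h, and 1 of the 4 libraries of 8 h reached the range of 4 h. In vitrified follicles the range was 33.2 to 88 (median 52.1) CPM at 0 h, with 32.7, 57.1, 72.3, 75.2 and 90.6 CPM in the 5 shared-plate libraries of 1 h. Later values were 16.9 to 34 (median 21.4) CPM at 4 h and 13.7, 6.44 and 6.98 CPM in the 3 libraries of 8 h. Libraries of the vitrified-only plate had 36.1 to 111 (median 51.8) CPM at 1 h and 6.44 to 30.5 (median 20.7) CPM at 8 h. Ccna2 fell from 1 h to 4 h by 1.43 ± 0.32 (adjusted p = 0.000118) and 1.47 ± 0.33 (adjusted p = 0.000112). From 4 h to 8 h the values were -1.49 ± 0.39 (SE, adjusted p = 0.00154) and -1.44 ± 0.43 (SE, adjusted p = 0.00593); these calls were lost in 2 of 11 alternatives, with adjusted p up to 0.13, and in 5 of 10 alternatives, with adjusted p up to 0.24, the latter also without vitrified 8 h replicate 2 or 3. Ccna2 and Exosc9 share exon bases on opposite strands and cannot be separated by these counts.

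Cyclin B1 had medians of 9.9, 12.8, 7.08 and 3.57 CPM in fresh and 9.77, 19, 6.77 and 3.81 CPM in vitrified follicles (vitrified-only plate 21.2 and 5.3). It rose in vitrified follicles from 0 h to 1 h (0.96 ± 0.30, adjusted p = 0.00672, lost in 3 of 13 alternatives, with adjusted p up to 0.348, among them the omission of vitrified 1 h replicate 3) and fell from 1 h to 4 h (-1.43 ± 0.37, adjusted p = 0.00083). Several pseudogenes nearly identical to Ccnb1, among them Ccnb1-ps at 99.2%, make its counts uncertain. Cdk1, the partner kinase of these cyclins, had medians of 17.5, 15.3, 15.8 and 6.15 CPM in fresh and 18.6, 31.7, 17.5 and 8.77 CPM in vitrified follicles (vitrified-only plate 30.6 and 11.8), and fresh 8 h replicate 4 had 19.9 CPM. Its fall from 4 h to 8 h in fresh follicles was -1.04 ± 0.42 (SE, adjusted p = 0.0457), lost in 8 of 11 alternatives, with adjusted p up to 0.617; on the vitrified-only plate it fell by 1.51 ± 0.31 (adjusted p = 2.07e-05) from 1 h to 8 h, lost with limma.

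Top2a, which untangles sister chromatids, and Mki67, the coat protein of mitotic chromosomes, fell as well. In fresh follicles Top2a lay at 1.11 to 71 (median 38) CPM at 0 h and 8.68 to 37.6 (median 23.3) CPM at 1 h. By 4 h it was at 6.04 to 24.1 (median 7.93) CPM, and the 4 libraries of 8 h had 0.356, 1.68, 4.89 and 8.47 CPM. The fresh 8 h libraries lay below all those of 1 h, while 1 h and 4 h overlapped. Vitrified follicles had 12.2 to 47.2 (median 29.7) CPM at 0 h, and 16.2, 50.1, 72.3, 31.1 and 43.7 CPM in the 5 shared-plate libraries of 1 h. Their 4 h libraries had 7.03 to 16.5 (median 10.3) CPM and the 3 of 8 h 4.98, 4.33 and 1.62 CPM. For Top2a the vitrified-only plate gave 14.6 to 85.5 (median 39.9) CPM at 1 h and 3.39 to 21 (median 15.9) CPM at 8 h. Top2a fell from 1 h to 8 h by 2.70 ± 0.60 (adjusted p = 0.000122) in fresh follicles and by 1.57 ± 0.38 (adjusted p = 0.00029) on the vitrified-only plate, the latter lost with total counts and limma. The single steps were less stable. From 1 h to 4 h in fresh follicles it was -1.10 ± 0.47 (SE, adjusted p = 0.04999), lost in 5 of 8 alternatives, with adjusted p up to 0.128, and from 4 h to 8 h -1.61 ± 0.59 (SE, adjusted p = 0.027) in fresh (lost in 5 of 11 alternatives, with adjusted p up to 0.389) and -1.64 ± 0.66 (SE, adjusted p = 0.0431) in vitrified follicles (lost in 8 of 10 alternatives, with adjusted p up to 0.525).

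Mki67 had medians of 14.4, 10.1, 4.9 and 3.02 CPM in fresh and 12.6, 15.1, 4.09 and 2.63 CPM in vitrified follicles (vitrified-only plate 9.1 and 4.84). It fell from 1 h to 4 h in vitrified follicles (-1.68 ± 0.41, adjusted p = 0.000393) and was -0.80 ± 0.40 (SE, adjusted p = 0.091) in fresh. From 1 h to 8 h in fresh follicles it fell by 1.77 ± 0.47 (adjusted p = 0.00109), lost with limma alone. On the vitrified-only plate the value of -0.94 ± 0.34 (SE, adjusted p = 0.0122) was lost with total counts and was 0.0385 with limma.

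The kinases, motors and kinetochore genes of mitosis were less uniform. Plk1, the polo kinase, had medians of 9.21, 5.97, 5.85 and 3.42 CPM in fresh and 10.3, 3.79, 8.26 and 6.96 CPM in vitrified follicles (vitrified-only plate 3.13 and 8.82). It fell from 0 h to 1 h in both kinds of follicle (-0.91 ± 0.36, adjusted p = 0.0342 and -1.38 ± 0.40, adjusted p = 0.0027), the fresh call lost with only the libraries compared (adjusted p = 0.0634), and rose from 1 h to 8 h on the vitrified-only plate (1.10 ± 0.38, adjusted p = 0.00936). Aurka, the centrosomal Aurora kinase, had medians of 3.2, 1.8, 1.92 and 2.49 CPM in fresh and 2.26, 1.65, 3.4 and 3.68 CPM in vitrified follicles (vitrified-only plate 1.46 and 2.44) and passed in no comparison. Its chromosomal relative Aurkb fell in fresh follicles from 1 h to 4 h (-1.48 ± 0.56, adjusted p = 0.0247), lost without fresh 1 h replicate 5 and with limma. Cdc20, the activator of the anaphase-promoting complex, had medians of 16.5, 16.2, 12.2 and 7.05 CPM in fresh and 15.6, 24.2, 9.25 and 5.81 CPM in vitrified follicles (vitrified-only plate 11 and 15.7) and passed at no time step.

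Kif11, the spindle motor, had medians of 1.67, 1.4, 0.65 and 0.543 CPM in fresh and 1.07, 2.17, 0.54 and 0.657 CPM in vitrified follicles (vitrified-only plate 2 and 0.752) and fell from 1 h to 4 h in vitrified follicles (-1.94 ± 0.74, adjusted p = 0.0264), lost without vitrified 1 h replicate 2 and with limma. Birc5 (survivin) had medians of 4.95, 3.3, 2.56 and 1.64 CPM in fresh and 4.16, 4.68, 1.75 and 2.36 CPM in vitrified follicles (vitrified-only plate 3.11 and 2.26), and Cenpa, the histone variant of centromeres, had medians of 10.5, 7.85, 7.55 and 3.31 CPM in fresh and 8.14, 11, 7.4 and 4.56 CPM in vitrified follicles (vitrified-only plate 7.57 and 5.23). Neither of these 2 genes passed in any comparison. Cenpe, a kinetochore motor, fell from 1 h to 8 h in both library sets (-2.38 ± 0.66, adjusted p = 0.00172 and -1.37 ± 0.43, adjusted p = 0.00442), the latter lost with total counts and limma. Its medians were 1.67, 2.87, 1.95 and 0.323 CPM in fresh and 1.96, 4.85, 1.94 and 1.46 CPM in vitrified follicles (vitrified-only plate 3.41 and 1.33). The fresh value from 4 h to 8 h was -1.74 ± 0.67 (SE, adjusted p = 0.0333), lost in 5 of 10 alternatives, with adjusted p up to 0.339, among them the omission of fresh 8 h replicate 1 or 3. From 0 h to 1 h it rose in vitrified follicles (1.25 ± 0.42, adjusted p = 0.0107), lost without vitrified 1 h replicate 3 and with total counts. The checkpoint gene Bub1b fell from 4 h to 8 h in vitrified follicles (-2.10 ± 0.79, adjusted p = 0.0294), lost in 6 of 9 alternatives, with adjusted p up to 0.364, among them the omission of vitrified 8 h replicate 2, and had medians of 3.64, 2.06, 2.01 and 1.51 CPM in fresh and 3.62, 2.82, 2.11 and 0.487 CPM in vitrified follicles (vitrified-only plate 3.62 and 1.88). Another checkpoint gene, Mad2l1, fell on the vitrified-only plate (-1.36 ± 0.25, adjusted p = 2.32e-06), lost with limma, and Tpx2, a spindle assembly factor, fell from 1 h to 8 h in fresh follicles (-1.32 ± 0.48, adjusted p = 0.0184), lost in 5 of 12 alternatives, with adjusted p up to 0.391. Bub1 and Kif20a passed at no step, with log2 fold changes between -1.51 and 1.78 and between -1.45 and 1.13.

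Sums over a role follow, and for replication they depended on Pcna. The 19 mitosis genes together had medians of 254, 182, 136 and 51.9 CPM in fresh follicles at 0, 1, 4 and 8 h, 246, 283, 119 and 66.9 CPM in vitrified follicles, and 249.995 and 127 CPM at 1 and 8 h on the vitrified-only plate. A few genes led this sum: Ccna2 alone had 57.7 of a mean of 202 CPM in fresh 1 h libraries and 7.63 of 72.2 CPM at 8 h. The replication genes without Pcna had 90.2, 49.6, 34.5 and 41.9 CPM in fresh, 75.5, 53, 30 and 35.7 CPM in vitrified follicles, and 45.9 and 57.2 CPM on the vitrified-only plate. With Pcna the replication sum had medians of 111, 163, 92.1 and 70.6 CPM in fresh, 97.9, 158, 76.6 and 60.6 CPM in vitrified follicles, and 225 and 75.7 CPM on the vitrified-only plate. On the shared plate the median mitosis sum was lowest at 8 h, as was the median replication sum with Pcna; without Pcna, an omission chosen with the values known, the median replication sum was lowest at 4 h, with 4 h and 8 h ranges that overlapped. One fresh 8 h library, replicate 4, had a mitosis sum of 141 CPM, inside the range of the 4 h libraries (82.2 to 166 CPM).

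The ratio of the mitosis sum to the replication sum without Pcna, read only for its change between groups, had a median of 2.46 in fresh 0 h follicles. It was 3.96 at 1 h (3.34 to 5.05), 3.62 at 4 h (2.42 to 4.62) and 1.29, 1.23, 1.24 and 2.48 in the 4 libraries of 8 h. Vitrified follicles had 2.83, 5.35 and 3.84 at 0, 1 and 4 h and 2.51, 1.20 and 2.54 at 8 h, and the vitrified-only plate had 5.43 at 1 h (2.77 to 7.26) and 2.11 at 8 h (1.05 to 2.73). All 9 libraries of 8 h on that plate lay below the 1 h range of 2.77 to 7.26. With Pcna in the replication sum the order of the groups changed: the medians were 2.04, 1.17, 1.41 and 0.739 in fresh and 2.26, 1.54, 1.56 and 1.1 in vitrified follicles of the shared plate, so the median was lower at 1 h than at 0 h. On the vitrified-only plate that ratio was 1.07 at 1 h and 1.61 at 8 h, higher at the later hour.

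Relative to the median of all tested genes, the median log2 fold change of the mitosis genes was -0.43 in fresh follicles from 1 h to 4 h (13 of 19 below it) and -0.67 from 4 h to 8 h (17 of 19), and in vitrified follicles -0.89 (17 of 19) and -0.92 (13 of 19). The 8 tested replication genes were at -0.69 (7 of 8 below) and 0.19 (4 of 8) in fresh, and -0.50 (6 of 8) and -0.10 (4 of 8) in vitrified follicles. The 4 nucleotide supply genes went from -0.21 to 0.32 in fresh and from -0.82 to 0.95 in vitrified follicles. These are descriptions of lists, not tests. On the log2(TPM + 1) scale, which understates the change of low genes, the mitosis values were -0.15 and -0.33 in fresh and -0.29 and -0.26 in vitrified follicles. The replication values there were -0.37 and 0.33 in fresh and -0.21 and 0.04 in vitrified follicles, and those of nucleotide supply -0.27 and 0.21, and -0.37 and 0.52.

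A second view of the whole span came from library sets that have no library in common, the fresh 1 h and 8 h libraries of the shared plate and the 18 vitrified libraries of the vitrified-only plate. Of the 15 and 12 genes that fell, 11 were common: Ccnd2, Myc, Pcna, Mcm3, Ccna2, Ccnb1, Ccnb2, Cdk1, Mki67, Top2a and Cenpe, that is 73.3% of the first list and 91.7% of the second. Of the 3 and 6 genes that rose, Ccnd3, Mcm7 and Tyms were common, all 3 of the first list and 50% of the second. Over all tested genes 18.6% fell in both sets, which is 79.2% and 68% of the genes that fell in each, and the shares of the rises were 78.9% and 64.6%. Among the 11, the fresh call of Cdk1 was lost in 7 of 12 alternatives, with adjusted p up to 0.496, and that of Ccnb1, Myc and Mki67 with limma. On the vitrified-only plate limma made no call for Myc, Mcm3, Ccna2, Ccnb1, Cdk1, Mki67, Top2a and Cenpe, and total counts none for Mcm3, Mki67, Top2a and Cenpe. Ccnd2, Pcna and Ccnb2 kept both calls in every alternative. Of the 3 that rose, the fresh call of Mcm7 was lost without fresh 8 h replicate 4.

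**Figure D4:**
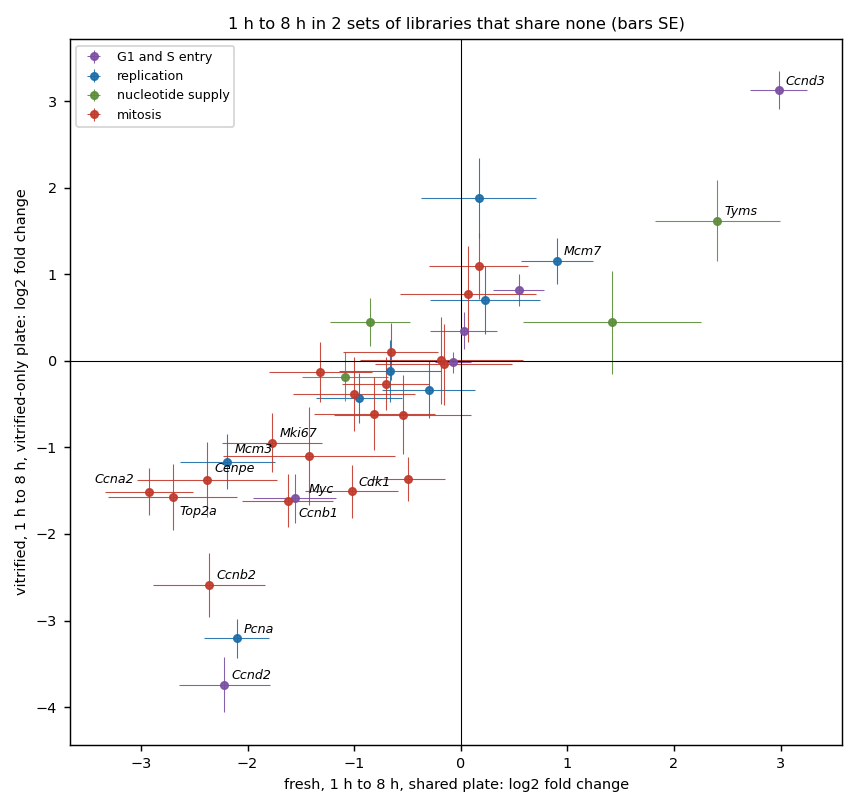
Log2 fold change from 1 h to 8 h of the 37 tested genes in fresh follicles on the shared plate (x axis) and in vitrified follicles on the vitrified-only plate (y axis); named points passed the test in both. The 11 genes that fell in both lie at lower left, and Ccnd3, Mcm7 and Tyms lie at upper right.

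Further genes of the same machinery, listed with earlier results in view, were counted in the same way. Of 27 tested other replication genes, 7 fell (25.9%) and 2 rose (7.41%) from 1 h to 4 h in both fresh and vitrified follicles, where 24.5% and 25.9% of all genes fell and 21.9% and 20.6% rose, so the share of falls was near the background. From 4 h to 8 h 9 rose (33.3%) and 1 fell in fresh, against 20.8% and 15.7% of all genes, and 8 rose (29.6%) and 3 fell in vitrified follicles, against 22% and 15%. Rfc2, a clamp loader subunit, fell at the first step (-1.47 ± 0.33, adjusted p = 0.000134 and -1.88 ± 0.34, adjusted p = 2.71e-06) and rose at the second (2.15 ± 0.34, adjusted p = 1.86e-07 and 2.45 ± 0.36, adjusted p = 4.26e-08), as did Rpa1 of the single-strand binding complex in fresh follicles (-2.06 ± 0.41, adjusted p = 1.47e-05, then 2.31 ± 0.41, adjusted p = 4.03e-06). Of 45 tested other mitosis genes, 7 fell (15.6%) and 1 rose in fresh and 10 fell (22.2%) and 1 rose in vitrified follicles from 1 h to 4 h, shares below those of all genes. From 4 h to 8 h 2 fell and 1 rose in fresh, and 2 fell and none rose in vitrified follicles, again shares below the background. The median log2 fold change from 4 h to 8 h, relative to that of all genes, was 0.70 (fresh) and 0.92 (vitrified) for the other replication genes and -0.12 and -0.07 for the other mitosis genes. On the log2(TPM + 1) scale these values were 0.13 and 0.13, and -0.15 and -0.13. Summed over all 56 listed, the other mitosis genes had medians of 261, 176, 184 and 143 CPM in fresh follicles. In vitrified follicles the medians were 248, 255, 162 and 168 CPM. On the vitrified-only plate they were 229 CPM at 1 h and 247 CPM at 8 h, so there this median did not fall. Cks2, which binds Cdk1, was the 1 other mitosis gene that rose from 1 h to 4 h (2.32 ± 0.36, adjusted p = 7.26e-08 and 1.76 ± 0.36, adjusted p = 2.46e-05). From 0 h to 1 h 1 of the other replication genes rose and 7 fell in fresh follicles (1 and 8 in vitrified), and 1 of the other mitosis genes rose and 4 fell (2 and 2), against 19% and 23.1% of all genes in fresh and 21.5% and 22% in vitrified follicles.

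The activators of mitotic promoters named above were also measured. Foxm1 had medians of 5.51, 4.2, 4.76 and 3.3 CPM in fresh and 6.12, 6.52, 7.92 and 0.829 CPM in vitrified follicles (vitrified-only plate 5.06 and 6.59), and fell from 4 h to 8 h in vitrified follicles (-2.22 ± 0.58, adjusted p = 0.00134); the fresh value was -0.39 ± 0.48 (SE, adjusted p = 0.559). Mybl2 had medians of 1.24, 0.834, 0.65 and 2.53 CPM in fresh and 1.46, 0.825, 1.48 and 0.92 CPM in vitrified follicles (vitrified-only plate 1.04 and 1.3) and was higher at 8 h than at 1 h in fresh follicles (1.84 ± 0.78, adjusted p = 0.0422).

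Among genes of cell cycle exit, Cdkn1a, which encodes the Cdk inhibitor p21, had medians of 43.6, 801, 967 and 869.9 CPM in fresh and 104, 1526, 1513 and 1127 CPM in vitrified follicles (vitrified-only plate 1038 and 548). The antiproliferative gene Btg2 rose within the first hour (6.66 ± 0.49, adjusted p = 5.38e-20 in fresh, 6.08 ± 0.53, adjusted p = 1.98e-16 in vitrified) and fell from 1 h to 4 h in fresh follicles (-4.80 ± 0.68, adjusted p = 8.62e-09). Cdkn2d, the Cdk4 inhibitor p19, rose from 4 h to 8 h (2.60 ± 0.39, adjusted p = 4.66e-08 and 2.33 ± 0.40, adjusted p = 1.65e-06), and the repressor E2f4 rose from 1 h to 4 h (1.64 ± 0.25, adjusted p = 3.07e-08 and 1.85 ± 0.25, adjusted p = 2.22e-09). Cdkn1c did not pass the filter, with medians of at most 1.1 CPM. The list these genes come from also holds genes that promote the cycle, among them Cdk6, E2f2, E2f3, Skp2 and Cdc25a. Counts over this list therefore do not measure exit genes alone. Of its 29 tested genes, 5 rose and 10 fell in fresh follicles from 0 h to 1 h, that is 17.2% and 34.5% against 19% and 23.1% of all genes. Between 1 h and 4 h 10 rose and 7 fell, 34.5% and 24.1% against 21.9% and 24.5% of all genes, and from 4 h to 8 h 5 rose and 2 fell, 17.2% and 6.9% against 20.8% and 15.7% of all genes. In vitrified follicles the counts were 8 and 7 (27.6% and 24.1% against 21.5% and 22% of all genes), 8 and 8 (27.6% and 27.6% against 20.6% and 25.9% of all genes), and 6 and 3 (20.7% and 10.3% against 22% and 15% of all genes).

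Vitrified and fresh follicles were compared within plates at each time. Before hCG 1 of the 37 genes differed, against 0.967% of all genes: Myc had 1.39 to 14.2 (median 7.36) CPM in vitrified and 3.56 to 44.8 (median 12.1) CPM in fresh follicles, a difference of -0.96 ± 0.23 (SE, adjusted p = 0.0171). The groups overlapped, and the call was lost with only the libraries compared in the model (adjusted p = 0.0592) and without the 5 vitrified libraries of plate row H (adjusted p = 0.0745). Over all alternatives its adjusted p ran from 0.00215 to 0.0745. It was kept without fresh 0 h replicates 15 and 16. At 1 h none of the 37 differed, against 0.555% of all genes, with 2 at an unadjusted p under 0.05 (Myc at -0.78 ± 0.35 and Tyms at 1.26 ± 0.60). At 4 h none did, against 0.118%, with 1 at an unadjusted p under 0.05 (Mcm7 at -0.67 ± 0.30), and at 8 h none did, against 2.06%, with 2 (Cdkn1b at 0.77 ± 0.34 and Rrm2 at 1.04 ± 0.44).

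Nor did any of the 37 change differently between fresh and vitrified follicles from 1 h to 4 h (against 0.0421% of all genes, 0 at an unadjusted p under 0.05) or from 4 h to 8 h (against 0.993%, 2 at an unadjusted p under 0.05, Cdkn1b and Myc). DESeq2 and limma also called none of these genes at 1, 4 and 8 h and in both differences of steps. With 3 to 7 libraries in these groups, SEs of a difference ran from 0.198 to 0.93 log2 units at 8 h, so small differences were not detectable.

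Vitrified follicles of the same hour could also be compared between plates. At 1 h none of the 37 genes differed, against 1.37% of all genes, with 2 at an unadjusted p under 0.05 (Pcna and Mad2l1), and none by DESeq2 or limma. At 8 h 7 differed, 5 higher and 2 lower on the vitrified-only plate, which is 18.9% of the 37 against 23.4% of all genes. Ccnd2 was lower (-2.04 ± 0.38, adjusted p = 3.53e-05) with no overlap, and Myc was lower as well (-1.20 ± 0.36, adjusted p = 0.01). Rrm1 (1.42 ± 0.40, adjusted p = 0.0056), Ccna2 (1.28 ± 0.42, adjusted p = 0.0179), Top2a (1.99 ± 0.64, adjusted p = 0.0163), Bub1b (2.06 ± 0.75, adjusted p = 0.0353) and Cdc20 (1.34 ± 0.49, adjusted p = 0.0362) were higher. With limma 1 was higher and 2 were lower, and without the shared-plate 8 h replicate 3 a single gene was called. Ccnd2 kept its call in every alternative, and each of the other 6 lost it in 1 to 5 of 9. The mitosis sum at 8 h was 66.6 to 89.6 CPM on the shared plate and 45.7 to 160 CPM on the vitrified-only plate, a range that holds that of the shared plate.

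Some of the genes cannot be counted cleanly. The library kit does not mark strand, and 12 of the 42 genes share at least 50 exon bases with another gene, among them Ccnd2 with Gm43126 and 9330179D12Rik, Ccnd3 with Bysl, Kif20a with Cdc23, Tk1 with Afmid and Plk1 with Gm44985. In a search of transcripts at 90% identity over at least 300 bases, 13 of the 42 had a look-alike, mostly processed pseudogenes, such as Ccnd3-ps for Ccnd3 (96.3%), Gm7856 for Cdc20, Plk-ps1 for Plk1, Gm48455 for Rrm2 and Gm15697 for Kif11. No source used here says how such reads were assigned, so the values of these genes are uncertain to that extent.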

How the data were processed

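RNA of 83 single follicles was made into cDNA by Smart-Seq2 and into paired-end Nextera XT libraries, per the labels' protocols; neither uses molecular identifiers or marks strand. The authors deposited estimated counts per gene, which are not whole numbers, and a table of log2(TPM + 1) values. The submitters' processing notes list HISAT2, Bowtie2, Partek and DESeq2 and the mm10 build, with neither version nor role, and no source used here says how multi-mapping reads were assigned.

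Estimated counts were rounded and tested with edgeR 4.0.16 (R 4.3.3; quasi-likelihood, robust), TMM scaling, filterByExpr at a minimum count of 10, and 1 mean for each of 10 sets of libraries (the 8 groups, with the vitrified 1 h and 8 h groups split by plate). P-values were adjusted by Benjamini-Hochberg over all 11889 genes and read at 0.05. SEs are the fold change divided by the square root of the F statistic. The script was tested on simulated data. Alternatives were RLE size factors, total counts alone, no low-count filter, 8 group means with a plate term, only the libraries compared, limma 3.58.1 on log2(TPM + 1) from the authors' log2 table, DESeq2 1.42.0, each replicate left out in groups of up to 5, and 4 sets of libraries left out after seeing the data. Limits of a zero are 3 counts over the summed scaled totals of the group and cover counting error only. Look-alike transcripts were searched with BLAST 2.17.0+, and figures drawn with Python 3.11.15.

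The 42 genes, the further lists and the tests were chosen with earlier results of these data known. Each of the 42 is named. The 31 set by name have values in every group, except Ccnd1, Ccne1, Ccne2, E2f1 and Cdc6, whose group medians are given as a span. The called gene of each role with the largest change in each comparison also has values in every group. From other lists at most 2 called genes per direction and step are named by smallest adjusted p, with Cdkn1a, Cdkn1c, Btg2, Foxm1 and Mybl2 in any case.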

Additional observations from a re-analysis of the deposited data

Results flagged for a closer look

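Each value here comes from a library that lay far from the others of its group, by the gap to the nearest library as a share of the group's range. Of 210 values examined, 16 did so, each as the highest of its group. The cut-off marks about 1 in 20 values only if they are normally distributed and independent, which was not tested. The 0 h groups and the vitrified 8 h libraries of the shared plate were not examined. Fresh 1 h replicate 5 was highest in summed replication genes (238 CPM, group median 163), Mcm5 (6.96 CPM, median 2.40) and Aurka (7.78 CPM, median 1.80). Fresh 8 h replicate 4 was highest in summed mitosis genes (141 CPM, median 51.9), Cdk1 (19.9 CPM, median 6.15), Plk1 (12.5 CPM, median 3.42) and Cenpa (9.57 CPM, median 3.31), and replicate 3 in Kif11 (0.978 CPM, median 0.543).

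At 4 h, fresh replicate 5 stood out in Ccnd2 (170.2 CPM, median 95.1), and vitrified replicate 5 in summed replication genes (123 CPM, median 76.6) and Cdk2 (21.8 CPM, median 12.6). On the vitrified-only plate at 1 h, replicate 7 stood out in Mcm6 (21.4 CPM, median 10.4) and Rrm2 (14.7 CPM, median 5.82), replicate 13 in Cdt1 (5.77 CPM, median 1.04) and replicate 11 in Aurka (5.69 CPM, median 1.46). At 8 h on that plate replicate 4 stood out in Kif11 (3.45 CPM, median 0.752).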

How the results depend on the processing

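Scaling, limma on log2(TPM + 1) and single libraries at 8 h moved the counts most. The 9 genes called from 0 h to 1 h became 27 with total counts alone in fresh and 16 in vitrified follicles. With limma on log2(TPM + 1) the 15 called in vitrified follicles from 1 h to 4 h became 9 and the 7 that differed between plates at 8 h became 3. The 1 gene that differed between vitrified and fresh follicles at 0 h became 2 with limma, 0 with only the libraries compared and 0 without the libraries of plate row H. The change of Mki67 from 1 h to 8 h on the vitrified-only plate turned to 0.0385 with limma. With 1 library left out at a time, the counts ran from 5 to 11 for fresh 4 h to 8 h, 13 to 20 for fresh 1 h to 8 h, 12 to 17 for vitrified 1 h to 4 h, 3 to 6 for vitrified 4 h to 8 h (3 without 8 h replicate 2) and 1 to 6 for the plates at 8 h (4 without 8 h replicate 2 and 1 without replicate 3). The causes were not tested. They were 10 for fresh 0 h to 1 h and 7 for fresh 1 h to 4 h without fresh 1 h replicate 5, 9 for vitrified 0 h to 1 h, and 0 for vitrified against fresh at 1 h and 8 h, both differences of steps and the plates at 1 h.

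Among single genes, values kept their direction and side of the threshold in 100 of 104 cases with RLE size factors, 103 of 104 with DESeq2, 81 of 104 with total counts, 92 of 104 without the low-count filter, 90 of 97 with 8 group means and a plate term, 86 of 93 with only the libraries compared and 63 of 104 with limma. Leaving out 1 library kept 248 of 310. Genes with medians of a few CPM or less, such as Kif11, Tk1 and Ccne1, are limited by depth, and the 3 to 7 libraries per group of the shared plate limit every step. No paired analysis was possible because the numbers in the titles name wells, not animals or culture runs, and the groups occupy different wells.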
